A study of Mus musculus with 12 samples.

Results

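The comparison described here set eosinophils given an antibody against Siglec-F together with IL-33 against eosinophils given IL-33 alone. It took the 3 libraries of the combined treatment and the 3 libraries of IL-33 alone, 6 of the 12 libraries of the series, and all 54532 genes of the count table, of which 14547 passed the expression filter and were tested. All groups used splenic eosinophils sorted for high side scatter and the 4get signal (SSChigh 4get+) from IL-5tg_4get/C57BL/6 mice, which overproduce interleukin-5 from a transgene and report Il4 transcription by green fluorescence. The promoter that drives the transgene is not given in the sources used here. The sorted cells were kept for 4 h with 5 µg/mL of the rat antibody clone E50-2440 plus 10 ng/mL recombinant murine IL-33, or with the same dose of IL-33. The other 2 groups, used here only for side-by-side values, received the isotype control or the antibody without IL-33. The labels do not say whether the cells given IL-33 alone also received an isotype antibody. Separate mice or cultures are not named for the replicates either, so a p-value here reflects how far individual libraries of 1 group varied, which could be a technical matter. The libraries are called IL-33 library 1 to 3 and combined library 1 to 3, after the replicate numbers in the labels.

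Siglec-F is a sialic acid-binding receptor of mouse eosinophils whose cytoplasmic tail carries an immunoreceptor tyrosine-based inhibitory motif (ITIM), a docking site for the phosphatases SHP-1 and SHP-2, and antibodies that crosslink it are known to promote eosinophil death. IL-33 is an alarmin that binds ST2 (encoded by Il1rl1) and its co-receptor IL-1RAP and signals through MyD88 to NF-kB and MAP kinases. Eosinophils respond to it with cytokine and chemokine expression and longer survival. The comparison asks how the antibody alters gene expression in cells that receive this activating signal.

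Total counts ran from 12140747 to 15686225 in the IL-33 libraries and from 12663407 to 17137988 in the combined libraries. The combined libraries did not resemble each other. Combined library 1 lay closest to IL-33 library 1, the closest of all 66 pairs of libraries in the series, with a root mean square log2 difference of 0.25 over 9178 well expressed genes. Its distance to combined libraries 2 and 3 was 0.67 and 0.69. Counts of 38.8% of genes still differed between that closest pair beyond sampling noise, so they were treated as separate libraries. At least 1 count was found for 15555 genes in combined library 2 and for 29990 in combined library 3, against 19742 to 24485 in the other 4 libraries. The median standard deviation (SD) of log2 CPM (read counts relative to the library total, scaled by TMM, the trimmed mean of M-values) was 0.337 in the combined group and 0.213 with IL-33.

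Combined libraries 2 and 3 also differed from the IL-33 libraries by gene length. Well expressed genes were ordered by exonic length and cut into 10 equal bins. In the bin of the shortest genes, 57 to 1764 bases, the median log2 difference from the mean of the IL-33 libraries was 0.64 and 0.86 in combined libraries 2 and 3, and 0.09 in combined library 1. In the bin of the longest, 9955 to 123179 bases, it was -0.48 and -0.59, against 0.00 in combined library 1. The IL-33 libraries lay between -0.23 and 0.17 in both bins. The main gene groups are therefore also given for combined library 1 against the IL-33 libraries, without that library, and with a smooth trend of each library with gene length removed. The cause of the trend was not tested.

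**Figure D1:**
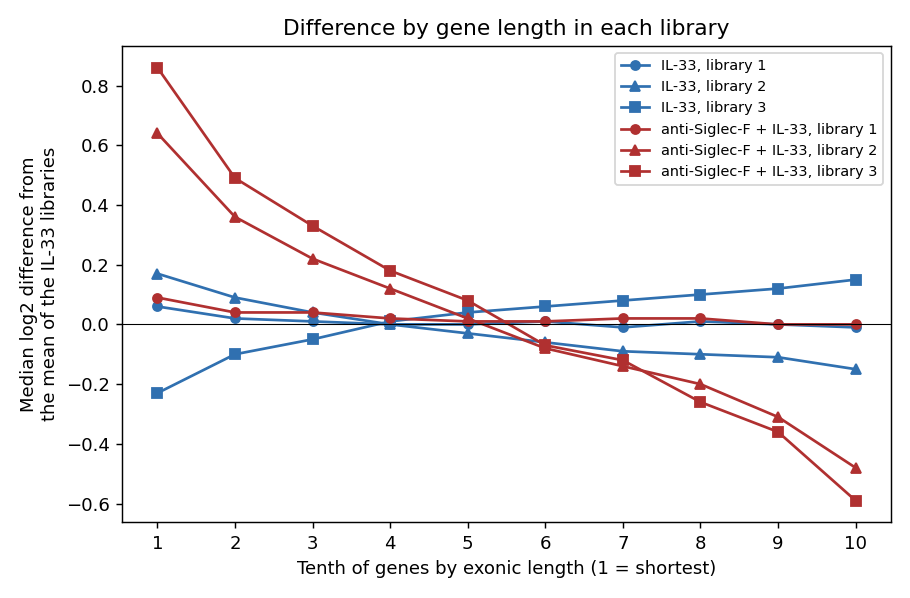
Median log2 difference from the mean of the 3 IL-33 libraries (y axis) in 10 bins of 9178 genes ordered by exonic length (x axis), 1 line per library. Combined libraries 2 and 3 run from 0.64 and 0.86 in the shortest bin to -0.48 and -0.59 in the longest, while combined library 1 runs from 0.09 to 0.00.

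No gene was called at an adjusted p under 0.05 by edgeR's quasi-likelihood test (0% of 14547), and the smallest adjusted p was 0.191. At an unadjusted p under 0.05 there were 2526 genes, 17.4% of those tested, with 727 to be found if no gene differed. Of these, 1490 (10.2%) had higher and 1036 (7.12%) had lower values with the antibody. The higher ones had a median exonic length of 2268.5 bases and the lower ones of 6123, against 3713 for all genes tested. In 2045 genes, 14.1%, the 3 combined libraries did not overlap the 3 IL-33 libraries, 1016 (6.98%) above and 1029 (7.07%) below. DESeq2 called 470 genes (3.23%), 381 higher (2.62%) and 89 lower (0.612%), and limma voom with sample quality weights called 0. Tested without an expression filter, 786 of 35803 genes were called by edgeR (2.2%), 517 higher (1.44%) and 269 lower (0.751%). Leaving out IL-33 library 1 gave 1 call (0.00655%), the receptor gene Tarm1 described below. Without combined library 1, edgeR called 2116 genes (13.8%), of which 1116 had higher values (7.3%) and 1000 lower ones (6.55%). Their median lengths were 2104 and 7538.5 bases. With the length trend also removed, there were 1221 calls (7.99%), 817 in the higher direction (5.35%) and 404 in the lower (2.64%), and 1053 of these were shared with the 2116. Combined library 1 against the 3 IL-33 libraries, with the lone library taken to vary like the other groups, gave 0 calls and 706 genes (4.41%) at an unadjusted p under 0.05, 377 higher (2.35%) and 329 lower (2.05%). In all that follows, values of single genes are CPM, differences are on the log2 scale with the standard error (SE) from the 12-library edgeR fit, and no gene passed the adjusted threshold in that fit.

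Genes of glycolysis had higher values in the combined libraries. Of 23 listed and tested genes for glucose uptake and glycolysis, 17 had positive differences with a median of 0.57, against 6897 of 14547 (47.4%) and -0.03 over all genes. At an unadjusted p under 0.05, 11 were higher and 0 lower, beside 10.2% and 7.12% of all genes. The libraries of 6 did not overlap, all of them higher, beside 6.98% of all genes. The gene for lactate dehydrogenase A, Ldha (ENSMUSG00000063229, chromosome 7, 46841475 to 46855627, plus strand, mm10), which turns pyruvate into lactate, measured 533, 403 and 498 CPM in the IL-33 libraries and 787, 876 and 1510 in the combined libraries. All 3 combined values lay above the IL-33 values. The difference was 1.15 ± 0.238 (SE; edgeR adjusted p = 0.191). Triosephosphate isomerase, Tpi1 (ENSMUSG00000023456, chromosome 6, 124810586 to 124814296, minus strand, mm10), measured 202, 125 and 128 CPM with IL-33 and 345, 278 and 742 with both. Its groups did not overlap either, combined library 3 was the highest by far, and the difference was 1.59 ± 0.319.

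At other steps of the pathway the groups of some genes lay apart and those of others overlapped. Aldolase A (Aldoa) measured 2410, 2490 and 1910 CPM against 3090, 3210 and 4410, and glyceraldehyde-3-phosphate dehydrogenase (Gapdh) 1220, 1030 and 984 against 1450, 1680 and 2470. Enolase 1 (Eno1) measured 1180, 1140 and 1000 CPM against 1620, 1480 and 2300, and the pyruvate kinase gene Pkm 1170, 1160 and 1090 against 1540, 1370 and 2210. In these 4 genes every combined library was above every IL-33 library, with differences of 0.65, 0.80, 0.70 and 0.58. For phosphofructokinase (Pfkl), which commits glucose to glycolysis, combined library 2 with 78.7 CPM lay inside the IL-33 range of 51.5 to 96.8, while combined libraries 1 and 3 had 146 and 242. Phosphoglycerate kinase (Pgk1) likewise had 184 CPM in combined library 2, inside the IL-33 range of 114 to 198, and 316 and 539 in the other two. The glucose transporter Slc2a1 (210 to 283 CPM with IL-33 and 362, 283 and 436 with both) and the lactate exporter Slc16a3 (598 to 927 and 1160, 880 and 1440) differed by 0.57 and 0.66. The 6 members with negative differences included the hexokinases Hk1 (-0.18 ± 0.194) and Hk2 (-0.16 ± 0.23) and the transporter Slc2a3 (-0.15 ± 0.265). The groups of these 3 overlapped.

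The glycolysis values were also high in combined library 1, which had no length trend. The list's median difference from the IL-33 mean was 0.46, 0.23 and 0.95 in combined libraries 1, 2 and 3, and 0.18, -0.18 and -0.12 in the IL-33 libraries. Combined library 1 alone against the IL-33 libraries gave 20 of 23 positive differences, a median of 0.47 and 11 genes higher at an unadjusted p under 0.05, beside 2.35% of all genes. The median was 0.63 without that library, where edgeR called 8 members higher and 0 lower, beside 7.3% and 6.55% of all genes. It was 0.53 with the length trend removed.

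The hypoxia response, the genes driven by hypoxia-inducible factors (HIF) when oxygen sensing by prolyl hydroxylases slackens, showed a like pattern. Of 23 tested genes, 21 had positive differences (median 0.76), and 14 were higher and 1 lower at an unadjusted p under 0.05, beside 10.2% and 7.12% of all genes. The libraries of 7 lay apart above, beside 6.98% of all genes, and of 1 below, beside 7.07%. That 1 was Ndrg1, with 5.16, 7.24 and 7.89 CPM against 4.38, 4.12 and 3.68. Egln3 (ENSMUSG00000035105, chromosome 12, 54178981 to 54203860, minus strand, mm10), a prolyl hydroxylase that is itself a HIF target, measured 79.5, 52.2 and 56.1 CPM with IL-33 and 141, 86.6 and 194 with both. The groups did not overlap and the difference was 1.17 ± 0.252. The prolyl hydroxylase Egln1 had 36.6, 25.2 and 32.8 CPM against 44.5, 42.2 and 45.9. Vhl, the ubiquitin ligase subunit that marks HIF for degradation, had 61.5, 58.2 and 64.0 against 70.6, 89.0 and 86.5.

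Several members of low abundance, unlike Ndrg1, also had higher values in the combined libraries. The adenylate kinase Ak4 measured 0.718, 0.551 and 0.349 CPM with IL-33, from 11, 7 and 5 counts, and 3.29, 1.93 and 5.45 with both, from 45, 23 and 80. Hilpda, a lipid droplet protein, had 5.81, 7.40 and 2.86 CPM against 11, 9.76 and 22.3. Their groups did not overlap, with differences of 2.70 ± 0.736 and 1.43 ± 0.365. Plin2, which coats lipid droplets, had 17.8, 13.7 and 17.3 CPM against 27.4, 20.4 and 38.0. Fam162a, a mitochondrial protein that is not on the list and was named for its small p, had 6.14, 7.08 and 4.68 against 10.2, 15.1 and 27.2. The macrophage migration inhibitory factor gene Mif had 35.8, 25.4 and 18.4 CPM against 54.9, 53.0 and 140, a difference of 1.64 ± 0.37. Bnip3, a mitophagy receptor, had 27.0 and 41.3 CPM in combined libraries 1 and 3 but 9 in combined library 2, inside the IL-33 range of 6.14 to 14.1. The transcript of the HIF subunit gene Hif1a showed 840, 662 and 653 CPM against 1020, 704 and 631, and these groups overlapped. By library the list's median was 0.53, 0.17 and 0.87 in combined libraries 1, 2 and 3, and 0.23, -0.06 and -0.14 in the IL-33 libraries, so combined library 2 lay below IL-33 library 1. The median difference was 0.54 for combined library 1 alone, and 0.61 with the length trend removed. Without combined library 1 it was 0.74, with 17 of 23 positive. There edgeR called 6 members higher and 0 lower, beside 7.3% and 6.55% of all genes.

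**Figure D2:**
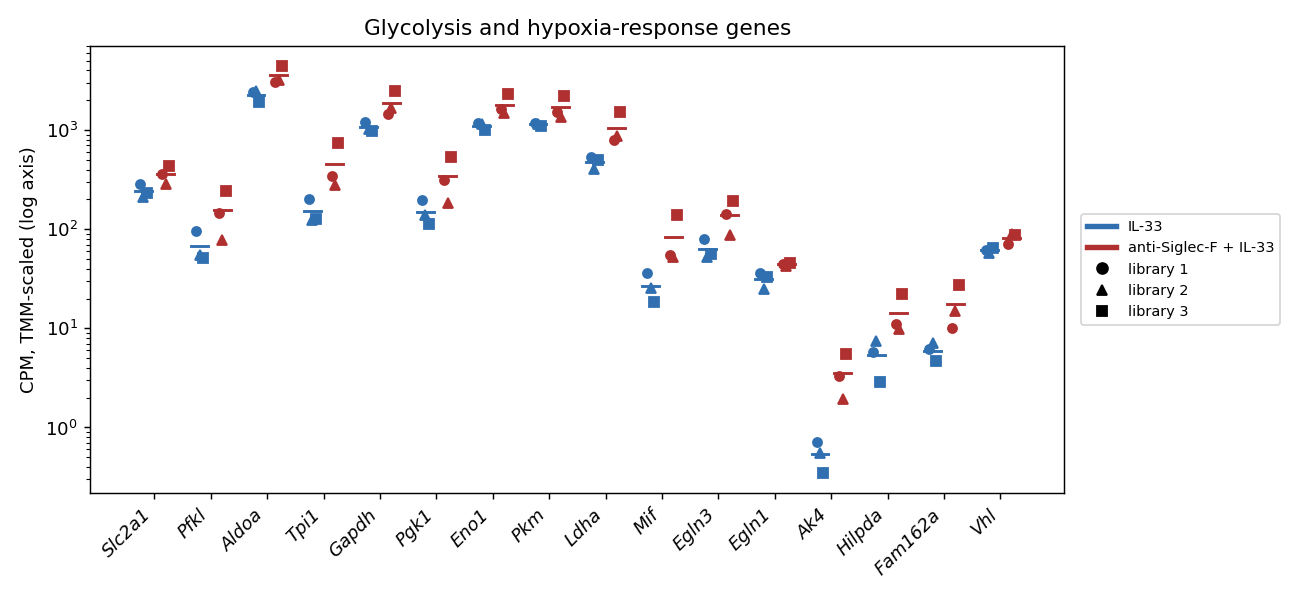
CPM on a log axis for 16 genes of glycolysis and the hypoxia response in the 3 IL-33 libraries (blue) and the 3 combined libraries (red). Marker shapes give the library and lines the group means. For Ldha the combined libraries sit at 787, 876 and 1510, all above the highest IL-33 library at 533.

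The letters ACGTG form the core of the hypoxia response element to which HIF binds, so the 250 bases before the start of 3 genes of these lists are printed, with each ACGTG and its reverse complement CACGT in capitals (RefSeq, GRCm38.p6, 5′ to 3′ on the gene's strand). The Ldha window is chr7:46845554-46845803 on the plus strand, before the first of its 2 RefSeq starts in the table, the Pgk1 window is chrX:106186850-106187099 on the plus strand, and the Egln3 window is chr12:54203875-54204124 on the minus strand.
Ldha: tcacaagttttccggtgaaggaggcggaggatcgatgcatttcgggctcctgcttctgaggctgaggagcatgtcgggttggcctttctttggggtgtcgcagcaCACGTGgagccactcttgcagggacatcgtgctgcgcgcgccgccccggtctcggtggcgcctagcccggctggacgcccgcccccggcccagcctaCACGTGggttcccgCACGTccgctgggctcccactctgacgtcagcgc
Pgk1: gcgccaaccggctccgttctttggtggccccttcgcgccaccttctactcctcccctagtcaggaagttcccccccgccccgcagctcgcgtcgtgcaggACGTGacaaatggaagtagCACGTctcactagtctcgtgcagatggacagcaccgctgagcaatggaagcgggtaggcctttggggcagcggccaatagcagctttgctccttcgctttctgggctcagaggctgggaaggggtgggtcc
Egln3: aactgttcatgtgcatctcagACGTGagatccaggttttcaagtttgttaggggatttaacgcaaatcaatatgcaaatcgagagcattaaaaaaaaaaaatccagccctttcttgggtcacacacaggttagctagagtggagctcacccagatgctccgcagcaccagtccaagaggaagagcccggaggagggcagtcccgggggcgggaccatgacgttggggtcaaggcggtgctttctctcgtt
Searched on both strands, the Ldha window held 5 matches, of which 4 belong to 2 copies of CACGTG where the 2 strands' matches overlap. The Pgk1 window held 2 and the Egln3 window 1, while the window before the second Ldha start held 0. The windows of Tpi1 and Mif and all 3 of Eno1 also held 0. The bases checked after the Mif start were not found in a transcript of that gene, so its window is less certain. Aldoa and Hilpda had 0 before their first start and 1 before each later start, and Fam162a had 1. At least 1 window with the motif was found for 12 of 22 glycolysis genes (54.5%) and 15 of 22 hypoxia genes (68.2%) that the table holds, and for 2461 of 9812 tested genes (25.1%). The hypoxia list was made of genes driven by HIF, and both lists were chosen with earlier results of these data known. Genes with several starts also had more windows. Neither share is therefore a result about the antibody. A match describes the letters in the window and is not a binding site or a cause.

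Cytokine genes differed between libraries as much as between the treatments. Of 17 tested cytokine genes 15 had positive differences (median 0.57), and 4 were higher and 0 lower at an unadjusted p under 0.05, beside 10.2% and 7.12% of all genes. Il5, the growth and survival factor of eosinophils, measured 895, 454 and 382 CPM with IL-33 and 1020, 681 and 1030 with both. Il13 had 376, 218 and 87.7 CPM against 439, 204 and 568, and Il6 330, 216 and 79.8 against 387, 145 and 723. In all 3 genes the groups overlapped, IL-33 library 3 had the lowest value of its group, and combined library 2 the lowest of the combined group. The differences were 0.66 ± 0.278, 0.83 ± 0.419 and 1.00 ± 0.499.

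The list's median was 0.36 without combined library 1. The differences of several members were smaller without IL-33 library 3. Without it the difference was 0.42 for Il5, 0.42 for Il13, 0.59 for Il6 and 0.28 for Il1b, whose values were 1740, 1340 and 397 CPM against 2080, 856 and 2740 and whose difference with all libraries was 0.71 ± 0.464. Without combined library 3 the difference was 0.50 for Il13, 0.35 for Il6 and 0.34 for Il1b. Il4 measured 262, 180 and 177 CPM against 270, 132 and 168, a difference of -0.12 ± 0.24 with overlapping groups. Tnf had 190, 133 and 91.0 CPM against 220, 177 and 350, a difference of 0.85 ± 0.259, with combined library 2 inside the IL-33 range. The IL-1 receptor antagonist gene Il1rn was the cytokine list's member whose groups did not overlap, at 2920, 3100 and 1800 CPM against 3540, 3920 and 4130. Markers of cells that also make type 2 cytokines moved with the libraries. The 17 T cell and ILC2 markers summed to 64.3, 204 and 51.4 CPM with IL-33 and to 62.8, 48.6 and 64.4 with both. The 11 basophil and mast cell markers summed to 751, 392 and 320 against 951, 519 and 1210, most of it from Hdc and Gata2. Mcpt8 and Prss34, which define basophils, stayed between 1.44 and 11.9 CPM. The part of these cells in the cytokine values was not tested.

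Chemokine genes showed the same spread, with 9 of 12 differences positive (median 0.88). At an unadjusted p under 0.05, 3 were higher and 0 lower, beside 10.2% and 7.12% of all genes. The groups of Ccl6 and Ccl9, both ligands of CCR1, did not overlap. Ccl6 measured 4080, 2490 and 2650 CPM against 4900, 5240 and 6600, and Ccl9 640, 472 and 526 against 725, 1140 and 907, with differences of 0.86 ± 0.231 and 0.76 ± 0.239. Ccl17, a CCR4 ligand, was low at 1.76, 1.5 and 0.349 CPM against 1.83, 2.19 and 6.47. The neutrophil chemoattractant Cxcl2 had 144, 124 and 20.3 CPM against 219, 60.7 and 319. Ccl3 had 1280, 666 and 215 against 1380, 545 and 2100, and Ccl4 had 333, 101 and 45.9 against 269, 158 and 622. For these 3 the groups overlapped, IL-33 library 3 was lowest of all 6 and combined library 3 highest of all 6. Cxcl10, an interferon-induced chemokine, had the opposite sign, -1.16 ± 0.581, with 31.9 CPM in IL-33 library 2 and 3.79 to 9.60 in the other libraries.

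**Figure D3:**
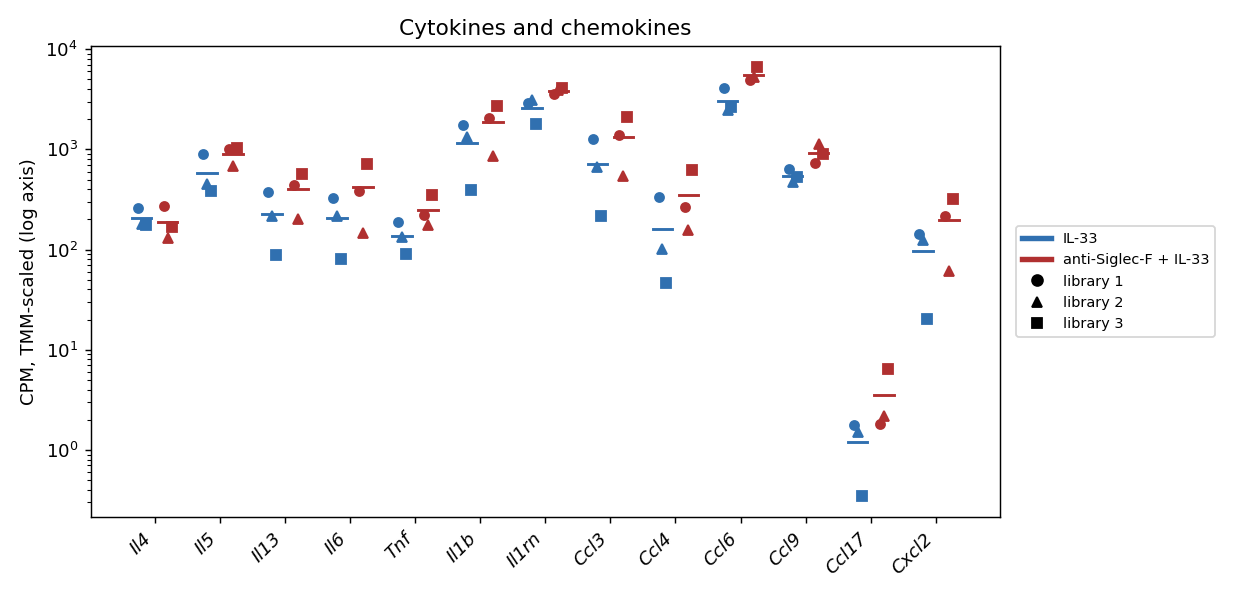
CPM on a log axis for 13 cytokine and chemokine genes in the IL-33 libraries (blue) and combined libraries (red), with marker shapes for the library and lines for the group means. Groups lie apart for Il1rn, Ccl6, Ccl9 and Ccl17, and overlap for Il4, Il5, Il13 and Il6.

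Genes of the IL-33 receptor and of NF-kB had median differences near 0 with all libraries, and negative ones without combined library 1. Il1rl1, which encodes ST2, measured 753, 478 and 671 CPM with IL-33 and 857, 770 and 567 with both, a difference of 0.21 ± 0.197 with overlapping groups. Il1rap had 7.84, 4.64 and 5.80 CPM against 9.42, 4.46 and 5.86. Of 19 genes of IL-33 receptor signalling, 11 had positive differences (median 0.04). At an unadjusted p under 0.05, 0 were higher and 1 lower, beside 10.2% and 7.12% of all genes. The lower one was Tab3, an adaptor of the kinase TAK1 (-0.45 ± 0.203). Myd88, the adaptor, measured 118, 120 and 108 CPM against 126, 148 and 145 and did not overlap, a difference of 0.27 ± 0.13. Of 30 genes of the NF-kB pathway and its feedback 12 were positive (median -0.02), and 0 were higher and 1 was lower, beside the same shares. Without combined library 1 the medians were -0.16 for IL-33 receptor signalling, with 5 of 19 positive, and -0.24 for NF-kB, with 9 of 30 positive. In each list edgeR then called 3 members lower and 0 higher, beside 6.55% and 7.3% of all genes. With the length trend removed as well the medians were 0.00 and -0.12, and combined library 1 alone gave 0.16 and 0.18. The inhibitor gene Nfkbia had 689, 671 and 360 CPM against 762, 514 and 886. Traf3, a brake on noncanonical NF-kB, was the lower one at 286, 304 and 340 CPM against 300, 182 and 172, and combined library 1 lay inside the IL-33 range.

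Feedback genes and targets of the ERK kinase pathway had higher values with the antibody both with and without IL-33. Of 10 tested genes 8 had positive differences in the presence of IL-33 (median 0.52), with 3 higher at an unadjusted p under 0.05 (10.2% of all genes) and 3 whose libraries lay apart and higher (6.98% of all genes). Dusp6, the phosphatase that dephosphorylates ERK, measured 336, 271 and 283 CPM with IL-33 and 453, 493 and 384 with both, a difference of 0.58 ± 0.148. The groups did not overlap. In cells without IL-33 it had 199, 217 and 207 CPM with isotype and 396, 369 and 427 with the antibody, a difference of 0.94 ± 0.149. Etv5, a transcription factor induced by ERK, had 18.7, 5.67 and 11.2 CPM against 36.7, 22.5 and 28.9 with IL-33 in both groups, and 10.5, 9.38 and 11.1 against 34.5, 25.5 and 42.8 without it. Its 2 differences were 1.30 ± 0.336 and 1.73 ± 0.341, and neither pair of groups overlapped.

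Spred1 and Spred2 encode membrane-bound inhibitors of RAS and ERK signalling. With IL-33, Spred1 had 33.6, 21.6 and 19.6 CPM against 52.2, 37.4 and 32.5, and Spred2 33.1, 23.1 and 23.7 against 53.7, 27.3 and 29.6, with overlap in both. Without IL-33, Spred2 had 19.1, 18.7 and 18.7 CPM against 47.8, 46.7 and 47.1, far outside the range of the isotype libraries. The antibody difference with IL-33 minus that without it was -0.76 ± 0.338 for Spred1 and -0.86 ± 0.328 for Spred2, and the edgeR adjusted p of both was 0.583. Dusp5 and Phlda1 differed by 0.64 ± 0.346 and 0.78 ± 0.381 with IL-33. Over the 10 genes the median was 1.05 without IL-33, where 6 were higher at an unadjusted p under 0.05, beside 1.59% of all genes. The 2 comparisons share no library. By library the list's median was 0.79, 0.24 and 0.51 in combined libraries 1, 2 and 3, and 0.35, -0.14 and -0.25 in the IL-33 libraries, so IL-33 library 1 lay above combined library 2. The median difference of 0.52 was 0.50 with the length trend removed, 0.29 without combined library 1, and 0.14 with both changes. Without combined library 1, 9 of 10 were positive, and edgeR called 1 higher and 1 lower, beside 7.3% and 6.55% of all genes. With both changes it called 0 higher and 1 lower, beside 5.35% and 2.64%.

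**Figure D4:**
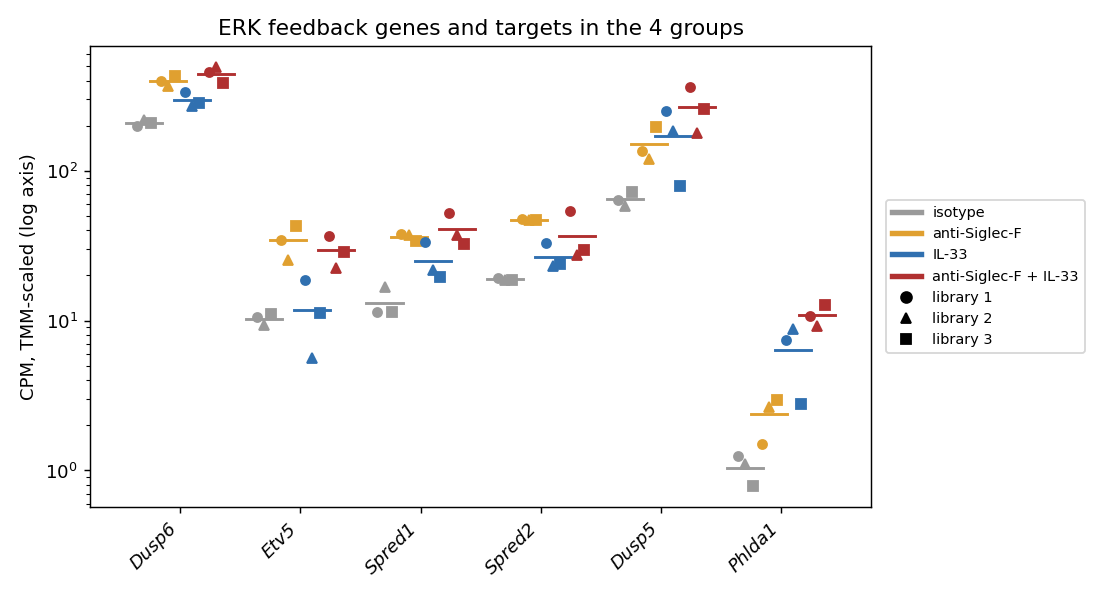
CPM on a log axis for 6 ERK feedback genes and targets in all 4 groups of 3 libraries, with lines for the group means. Dusp6 lies at 199 to 217 with isotype, 369 to 427 with the antibody, 271 to 336 with IL-33 and 384 to 493 with both.

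Genes against oxidative stress had high values in combined libraries 1 and 3 and not in combined library 2. Of 22 genes of the NRF2 and oxidative stress response, which protects cells from reactive oxygen, all 22 had positive differences (median 0.50), with 5 higher and 0 lower at an unadjusted p under 0.05, beside 10.2% and 7.12% of all genes. The list's median was 0.68, -0.05 and 0.86 in combined libraries 1, 2 and 3 and 0.19, 0.36 and -0.67 in the IL-33 libraries. Hmox1, heme oxygenase 1, measured 1570, 1150 and 199 CPM against 2190, 576 and 2120, a difference of 0.74 ± 0.623 with overlap. The thioredoxin reductase gene Txnrd1 had 779, 700 and 267 CPM against 1290, 421 and 942. In both genes combined library 2 lay inside the IL-33 range. The peroxidase gene Prdx1 did not overlap, at 108, 163 and 69.2 CPM against 195, 189 and 385 (difference 1.18 ± 0.311), nor did Taldo1, of the pentose phosphate pathway, at 1500, 1740 and 1220 against 1850, 1970 and 2810.

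Heat shock chaperones, which refold proteins, had 16 of 19 positive differences (median 0.36) and 9 higher at an unadjusted p under 0.05, beside 10.2% of all genes, with 5 lying apart and higher, beside 6.98%. Hspa8, the constitutive chaperone of the HSP70 family, measured 667, 497 and 571 CPM against 917, 760 and 1070, and Hsph1, a nucleotide exchange factor, 40.7, 36.0 and 36.7 against 66.3, 48.3 and 62.7. Neither overlapped, with differences of 0.66 ± 0.182 and 0.65 ± 0.182. The inducible Hspa1a and Hspa1b, near-identical copies whose reads may be shared, had 4.40 to 24.4 and 6.56 to 42.4 CPM with IL-33. Combined library 1 had the most, 67.0 and 91.3 CPM. Without IL-33 the antibody differences of these copies were 2.19 and 1.93. Genes of the unfolded protein and integrated stress response had 22 of 24 positive differences (median 0.23). At an unadjusted p under 0.05, 3 were higher, a share near the 10.2% of all genes. These 3 were the transcription factors Atf4 (0.60 ± 0.211) and Ddit3 (0.57 ± 0.264) and the amino acid transporter chain Slc3a2 (0.81 ± 0.269).

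The transcript of the antibody's target did not set the groups apart. Siglecf measured 700, 535 and 858 CPM with IL-33 and 606, 673 and 572 with both, a difference of -0.18 ± 0.186. Ptpn6, which encodes SHP-1, had 1320, 924 and 956 CPM against 1140, 1090 and 1330, and Ptpn11, which encodes SHP-2, 151, 131 and 148 against 166, 111 and 110. Both groups overlapped. Of 19 genes of Siglec-F, ITIM phosphatases and Src-family kinases 8 had positive differences (median -0.12). At an unadjusted p under 0.05, 2 were higher and 2 lower, shares near the 10.2% and 7.12% of all genes. The libraries of 1 lay apart above and of 2 below, beside 6.98% and 7.07% of all genes. Siglece, another inhibitory Siglec, lay apart and higher, at 713, 851 and 556 CPM against 859, 1140 and 1020, a difference of 0.51 ± 0.2. Pag1, the membrane adaptor that recruits the kinase CSK to hold Src kinases inactive, lay apart and lower, at 19.5, 29.0 and 21.9 CPM against 15.8, 4.12 and 5.38, a difference of -1.47 ± 0.399. Csk itself had 662, 502 and 533 CPM against 594, 977 and 833. Pag1 has 9580 bases of exon, combined library 1 was closest to the IL-33 range, and the difference was -1.31 with the length trend removed.

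Eosinophil receptors were mixed. Of 28 receptor and surface genes 16 were positive (median 0.11, and -0.01 without combined library 1). The libraries of 3 lay apart, all higher, a share near the 6.98% of all genes. The chemokine receptor Ccr1 measured 489, 453 and 450 CPM against 568, 759 and 742, the integrin Itgam 490, 379 and 444 against 585, 814 and 636, and the IL-3 receptor chain Il3ra 18.7, 11.5 and 10.8 against 21.4, 28.2 and 36.9. Their differences were 0.57 ± 0.155, 0.63 ± 0.174 and 1.07 ± 0.271. In all 3 genes combined library 1 was the lowest of the combined group. The defining receptors Ccr3 (1290, 1290 and 1620 CPM against 1450, 1720 and 1330) and Il5ra (101, 49.1 and 144 against 105, 104 and 71.2) overlapped. Granule protein genes depended on combined library 3. Prg2, the major basic protein, measured 2000, 922 and 622 CPM against 1770, 896 and 5370, and Epx, eosinophil peroxidase, 498, 176 and 192 against 413, 139 and 532. The list's 6 tested members had medians of 0.75, -0.30 and 2.35 in combined libraries 1, 2 and 3, and the Ear genes among them are near-identical copies.

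Groups lay apart and higher for 4 of 15 genes of prostaglandin and leukotriene synthesis, 6 of 21 lysosome genes and 4 of 15 survival genes, beside 6.98% of all genes. Alox5ap, needed for leukotriene synthesis, measured 641, 641 and 621 CPM against 689, 1160 and 1080. Pla2g4a, the phospholipase that releases arachidonic acid, had 168, 124 and 121 CPM against 228, 182 and 226, and Ptges3, a prostaglandin E synthase and HSP90 co-chaperone, 156, 170 and 143 against 210, 221 and 239. Their differences were 0.63 ± 0.195, 0.62 ± 0.172 and 0.51 ± 0.142. Ptgs2, the inducible cyclooxygenase, overlapped, at 405, 195 and 59.9 CPM against 711, 104 and 553. Of 21 lysosome genes 16 were positive (median 0.36) and 9 higher at an unadjusted p under 0.05. Cd63, a tetraspanin of granule membranes, had 640, 617 and 362 CPM against 838, 961 and 1740, and the protease Ctsd 927, 830 and 392 against 1150, 1110 and 1580. Of 15 survival genes 11 were positive (median 0.24, and 0.14 without combined library 1), with 5 higher and 1 lower, and 3 of those 4 that lay apart are near-identical Bcl2a1 copies. Bcl2l1, which encodes the anti-apoptotic BCL-XL, measured 278, 294 and 217 CPM against 316, 364 and 350. Bcl2a1d had 147, 124 and 73.2 CPM against 178, 219 and 342, and is a near-identical copy of Bcl2a1b, whose difference was 1.05 ± 0.295. Of 19 death genes 13 were positive (median 0.25), with 4 higher and 1 lower. The higher and lower counts of the lysosome, survival and death genes stand beside 10.2% and 7.12% of all genes.

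Ribosomal protein and respiratory chain genes set combined libraries 2 and 3 apart from the other 4 libraries. All 37 cytosolic ribosomal protein genes tested had positive differences (median 0.78). At an unadjusted p under 0.05, 35 were higher, beside 10.2% of all genes. Their median by library was -0.06, 0.87 and 1.23 in combined libraries 1, 2 and 3, and -0.09, 0.29 and -0.20 in the IL-33 libraries. Rplp1, of the ribosomal stalk, measured 488, 575 and 352 CPM with IL-33 and 511, 1100 and 1560 with both. Combined library 1 lay inside the IL-33 range and the difference was 1.16 ± 0.333. The list's median exonic length was 1830 bases, short beside 3713 for all genes, and its median difference was 0.59 with the length trend removed. Without combined library 1 edgeR called 35 of 37 higher, beside 7.3% of all genes, and 32 with the trend removed as well, beside 5.35%. Combined library 1 alone gave a median of -0.03 with 0 members at an unadjusted p under 0.05.

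Subunits of the respiratory chain encoded in the nucleus behaved alike, with 24 of 25 positive (median 0.55) and medians of 0.04, 0.61 and 0.87 by combined library. At an unadjusted p under 0.05, 14 were higher, beside 10.2% of all genes. Ndufb9, of complex I, had 13.9, 17.2 and 11.5 CPM against 16.4, 41.6 and 36.0, and Uqcrb, of complex III, 37.2, 33.7 and 28.3 against 35.9, 67.3 and 64.2. Mitochondrially encoded genes did not follow, with 9 of 13 positive (median 0.10) and none at an unadjusted p under 0.05 by edgeR. Their medians were -0.16, 0.79 and -0.20 by combined library.

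**Figure D5:**
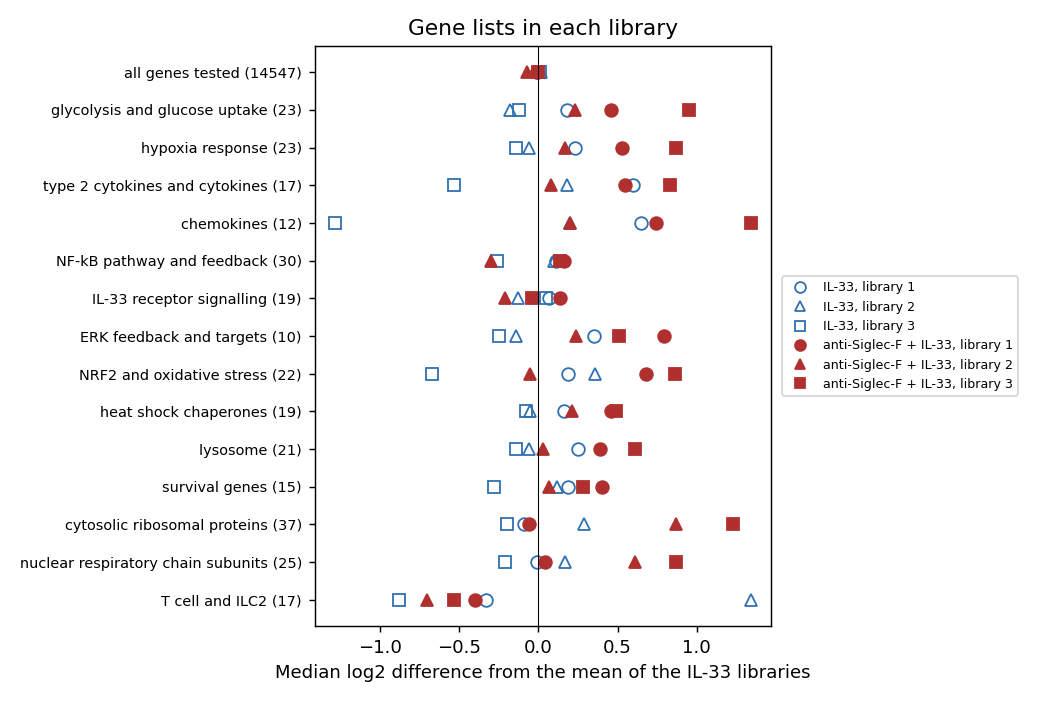
Median log2 difference from the mean of the IL-33 libraries (x axis) of 14 gene lists and all genes tested, with the number of tested members in parentheses, for each IL-33 library (open blue) and combined library (filled red). Glycolysis genes lie at 0.46, 0.23 and 0.95 in combined libraries 1, 2 and 3, whereas ribosomal protein genes lie at -0.06, 0.87 and 1.23.

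The remaining lists were mixed, and their counts at an unadjusted p under 0.05 stand beside 10.2% of all genes higher and 7.12% lower. Of 26 genes of ribosome biogenesis and MYC targets 18 were positive (median 0.24), with 7 higher and 0 lower at an unadjusted p under 0.05. Among the higher ones was Nme1, a nucleoside diphosphate kinase (1.19 ± 0.298). By library this list's median was -0.05, 0.29 and 0.29 in combined libraries 1, 2 and 3, and -0.10, 0.11 and -0.03 in the IL-33 libraries. Of 14 genes of the tricarboxylic acid cycle 10 were positive (median 0.15), with 5 higher, among them the dehydrogenases Idh3a (0.79 ± 0.209) and Mdh2 (0.64 ± 0.207). Eosinophil transcription factors had 9 of 12 positive (median 0.34), with 4 higher and 1 lower. The eosinophil lineage factor Gata1 measured 239, 226 and 205 CPM against 275, 333 and 329, and the lower one, Irf8, differed by -0.69 ± 0.288. Of 25 immediate early genes 17 were positive (median 0.18), with 2 higher, Jund (0.63 ± 0.216) and Maff (1.04 ± 0.351), a share below that of all genes. The median was 0.03 without combined library 1 and -0.06 with the length trend removed as well. JAK-STAT feedback genes had 6 of 12 positive (median -0.02), with Socs1 (0.68 ± 0.243) higher and Jak2 (-0.52 ± 0.185) lower. Interferon-stimulated genes had 6 of 14 positive (median -0.07), with Stat2 (-0.43 ± 0.16) lower. Sialic acid and sialyltransferase genes had 6 of 16 positive (median -0.14), with Nans, of sialic acid synthesis, higher (0.41 ± 0.171) and St3gal2 lower (-0.66 ± 0.295). Calcium and NFAT responsive genes had 7 of 13 positive (median 0.04), with Orai1, a calcium channel (0.65 ± 0.244), and Ppp3ca, a calcineurin chain (0.42 ± 0.168), higher. Of 24 cholesterol genes 16 were positive (median 0.22) with 1 higher, Pmvk, of 14 proliferation genes 10 (median 0.30) with 1 higher, Pcna, and of 7 arginine and itaconate genes 6 (median 0.56) with 2 higher, one of them Sat1, a polyamine acetyltransferase (0.63 ± 0.215). Without combined library 1 the median of the cholesterol genes was 0.07 and that of the arginine and itaconate genes 0.12, with 4 of 7 positive, and the latter was 0.04 with the length trend removed as well. That of the JAK-STAT feedback genes was -0.16 without combined library 1.

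Genes with the smallest p and no overlap were taken as a further description, 15 in each direction. All 30 had an edgeR adjusted p of 0.191. Those with higher values included Ldha, Tpi1, Egln3 and Fam162a. Mpp6, a membrane-associated scaffold protein, showed tight groups, 33.0, 33.6 and 33.6 CPM with IL-33 and 52.8, 51.7 and 49.6 with both (difference 0.62 ± 0.129). Tarm1, an activating receptor of myeloid cells, measured 131, 70.7 and 65.5 CPM against 176, 187 and 222, a difference of 1.13 ± 0.228. Without IL-33 the antibody went with a like difference in Tarm1, 1.10 ± 0.23, from 34.3 to 42.1 CPM with isotype and 72.8 to 86.8 with the antibody. Psmd14, the deubiquitinase of the proteasome lid, had 71.5, 57.5 and 62.4 CPM against 88.8, 114 and 113, and Tpm4, a cytoskeletal tropomyosin, 56.6, 61.9 and 58.3 against 82.7, 101 and 135. Scand1, a SCAN domain protein, had 63.4, 66.7 and 46.2 CPM against 85.9, 204 and 214, and the protease inhibitor Cstb 56.2, 41.9 and 25.3 against 80.1, 97.7 and 197. The remaining ones were Lamtor4, Hsd17b12, Tmem160, Gtf2h5 and Chchd4, with differences of 0.76 to 1.27. In these 5 combined library 1 was the lowest of the combined group.

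The genes with lower values included several long transcripts. Hdac5, a class IIa histone deacetylase, measured 56.3, 56.3 and 77.2 CPM with IL-33 and 37.8, 35.1 and 33.7 with both (difference -0.83 ± 0.165). The 3 combined libraries agreed closely for Hdac5. Nsd2, a histone H3 lysine methyltransferase, had 71.5, 64.2 and 76.1 CPM against 51.4, 43.9 and 39.2. Its exonic length is 16803 bases, and its difference of -0.66 ± 0.149 was -0.22 with the length trend removed. Rev3l, the catalytic subunit of a translesion polymerase, had 17.0, 21.2 and 26.7 CPM against 10.9, 7.15 and 8.79, and Pkd1, polycystin 1, 52.8, 49.8 and 80.4 against 38.4, 21.9 and 24.6. For Pkd1, of 17415 bases, the difference of -1.11 ± 0.261 was -0.68 with the trend removed. Card6, a caspase recruitment domain protein, had 8.16, 15.7 and 7.26 CPM against 4.82, 2.44 and 1.98, and Abl1, the tyrosine kinase, 52.6, 56.3 and 78.0 against 46.8, 32.1 and 33.0. Plekhg2, Smg6, Sec14l2, Bcl9, Gpr137b, Cacnb1, Sun1, Nup210 and Pds5b had differences between -1.28 and -0.56.

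The antibody effects with and without IL-33 were compared by a test of the difference between them. With all libraries and the expression filter edgeR called 0 genes (0%), with 1150 genes (7.91%) at an unadjusted p under 0.05. DESeq2 called 3 (0.0206%), Scand1 (2.01), Tmem160 (1.68) and the coagulation factor gene F13a1 (-2.79), where a positive value is a higher antibody difference with IL-33. Without an expression filter edgeR called 86. Without combined library 1 it called 4, namely Scand1 (2.32), Tmem160 (1.95), the phosphatase inhibitor gene Ppp1r14b (1.82) and Pag1 (-2.67). The antibody without IL-33 also gave 0 calls in edgeR (0%), and 370 genes (2.54%) at an unadjusted p under 0.05, with DESeq2 calling 11 (0.0756%). Across 9178 genes, which are not independent replicates, the 2 effects had Pearson's r of 0.09 and the same sign in 48.2%, with median absolute log2 differences of 0.272 with IL-33 and 0.126 without it. Glycolysis genes had a median difference of 0.10 without IL-33, with 0 members at an unadjusted p under 0.05. Of these genes 17 of 23 were positive, the same count as with IL-33, beside 7092 of all 14547 genes. Hypoxia genes had a median of 0.06 without IL-33, with 15 of 23 positive, against 21 of 23 with it. For Ldha the antibody difference was 0.06 ± 0.235 without IL-33, from 540, 641 and 621 CPM with isotype and 643, 501 and 737 with the antibody. The difference between the 2 effects was 1.08 ± 0.333 for Ldha and 1.20 ± 0.443 for Tpi1, both with an edgeR adjusted p of 0.583. Chemokine and cytokine genes had medians of 0.69 and 0.46 without IL-33, beside 0.88 and 0.57 with it. Ribosomal protein genes had 0 of 37 positive without IL-33 (median -0.08).

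Eosinophil markers were present in all 6 libraries, with the 10 of the list summing to 9020, 5300 and 5960 CPM with IL-33 and 8410, 6650 and 15400 with both, the last mostly granule genes. Among markers of other cells, the 14 B and plasma cell genes summed to 760, 1500 and 796 CPM against 750, 1070 and 691, and none of the 14 was at 0 counts in all 6 libraries. The 15 neutrophil genes summed to 1730, 1130 and 593 against 1760, 1010 and 2060, and the 14 monocyte and macrophage genes to 1240, 948 and 905 against 1330, 1060 and 1540. Of the T cell and ILC2 genes 1 of 17 had a positive difference (median -0.86). At an unadjusted p under 0.05, 3 were lower (Cd8a, Bcl11b and Tcf7), beside 7.12% of all genes. With only the 2 groups compared, 0 were lower. IL-33 library 2 held the highest sum. The list's median difference from the IL-33 mean was -0.33, 1.34 and -0.88 in the IL-33 libraries and -0.40, -0.70 and -0.53 in the combined libraries. Dendritic cell markers summed to 58.4 to 108 CPM against 101 to 172, NK cell markers to 4.11 to 11.5 against 3.87 to 17.9, erythroid markers to 13.4 to 19.4 against 15.9 to 31.8, megakaryocyte and platelet markers to 133 to 265 against 181 to 284, and stromal and endothelial markers to 330 to 435 against 492 to 546. In bulk libraries fewer cells of a type and less RNA per cell cannot be told apart.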

How the data were processed

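RNA sequencing reads were counted per gene, and the deposited table holds raw counts (per the file headers), which were whole numbers throughout. Per the submitters' processing notes, the authors used fastp, FastQC 0.11.8, STAR 2.6.1d, featureCounts 1.5.0-p3 and DESeq2 with mm10. The sources used here give neither the annotation release nor the strand setting, so overlapping or antisense genes cannot be told apart, and near-identical copies (Bcl2a1, Ear and Hspa1 genes) are uncertain. Gene positions and exonic lengths are those of the authors' table.

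Groups follow the labelled treatment. The counts were tested with edgeR 4.0.16 (R 4.3.3) by its quasi-likelihood method, with TMM scaling, filterByExpr by group, all 12 libraries in 1 fit, no replicate block and Benjamini-Hochberg adjustment over 14547 genes. DESeq2 1.42.0 and voom of limma 3.58.1 were alternatives. The length trend of each library was removed with a lowess offset (span 0.3), an alternative chosen after seeing the data. Counts were simulated for this comparison without a length trend, with 200 changed among 14201 genes. There edgeR called 56% of genes changed 2-fold and 99% of those changed 4-fold, with 4.91% unchanged genes among its calls. DESeq2 gave 15% unchanged genes among its calls there. With a length trend simulated, edgeR called 50% and 99%, with 8.59% unchanged genes among its calls. With that trend removed again, the values were 54%, 99% and 2.55%. The real combined libraries had a median SD of 0.337, against 0.213 with IL-33. How the simulated shares carry over to such libraries was not tested, so a lack of calls does not exclude changes of these sizes.

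The 31 function lists, 11 marker lists and the rule for named genes were chosen with earlier results of these data known. The rule took the 15 higher and 15 lower genes with the smallest p, at least 5 CPM on average, no predicted models or pseudogenes and no overlap between groups, up to 5 members per list, and a set of always-named genes. Any list member could be given with its values. Of 706 listed symbols 704 were in the table.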

Additional observations from a re-analysis of the deposited data

How the results depend on the processing

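The count of genes called by edgeR, 0 with all libraries, was also 0 with only the 2 groups compared, voom, DESeq2 size factors, a strict expression filter, the length trend removed, and without combined libraries 2 and 3. It was 470 with DESeq2 (381 higher, 89 lower), 786 without an expression filter (517 and 269), and 1221 with the length trend removed and without combined library 1 (817 and 404). Leaving out 1 library at a time gave 0 to 2116 calls, 0 to 1116 higher and 0 to 1000 lower, the maxima without combined library 1. Genes at an unadjusted p under 0.05 numbered 1258 with only the 2 groups, 706 without combined libraries 2 and 3, 3833 with the length trend removed and without combined library 1, and 1354 to 4640 on leaving out 1 library. The lowest of these was without IL-33 library 3 and the highest without combined library 1. Genes whose groups did not overlap numbered 2753 to 5945 on leaving out 1 library. A lack of overlap is easier to meet with fewer libraries, so these counts cannot be set against the 2045 with all libraries. The interaction gave 3 calls with DESeq2, 86 without an expression filter, 2 with the length trend removed and without combined library 1, and 0 to 4 on leaving out 1 library. The cause of these differences was not tested.

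Deviations from the group means correlated at 0.21, -0.02 and -0.39 between IL-33 and combined libraries of equal replicate number, over 9178 genes. Combined libraries 2 and 3 carried the length trend, so these values cannot decide whether equal numbers share a source. B and plasma cell markers summed highest in library 2 of each group, at 1330, 1030, 1500 and 1070 CPM with isotype, antibody, IL-33 and both. The replicate block gave 0 calls and 2682 genes at an unadjusted p under 0.05 over 12 libraries, and 0 calls and 849 genes with only the 2 groups compared.

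Signs of small differences turned in some settings. With voom Il1rap was -0.22 and Epx -0.37. Il5ra was 0.05 with the replicate block and only the 2 groups. Nfkbia was -0.03 with the length trend removed and without combined library 1, and Ptpn11 was 0.01 with the trend removed. Without combined libraries 2 and 3 Il5ra was 0.13, Il4 0.42, Ptpn11 0.25, Inpp5d 0.04, Syk 0.18 and Rpl3 -0.11. Leaving out 1 library gave ranges of -0.25 to 0.33 for Il1rap, -0.39 to 0.30 for Il5ra, -0.01 to 0.20 for Ccr3, -0.07 to 0.97 for Epx and -0.47 to 0.08 for Il4.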
